A study of Glycine max with 20 samples.

Results

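Seed maturation over the last 5 days sampled was examined in cgy-2-NIL, a near-isogenic soybean line that lacks the α subunit of the storage protein β-conglycinin. The comparison sets the 2 libraries of seeds collected 55 days after flowering (DAF) against the 2 libraries collected at 50 DAF, over all 57274 genes of the count table. These 4 libraries were chosen by their labels from the 20 libraries of the series, which cover cgy-2-NIL and its parent at 5 stages (18 to 55 DAF) with 2 libraries per line and stage. cgy-2-NIL (α-null) carries the cgy-2 allele on a donor segment of chromosome 20 in the background of its recurrent parent, the cultivar Dongnong47 (DN47), which has all storage protein subunits. Plants were grown in the field in 1 summer, no treatment was given, and the seeds of an age, cotyledon and seed coat together, were pooled. Several cgy-2-NIL lines from 1 backcross family were kept by the study, and the labels do not say which of them gave each pool. Each sample is therefore a mixture of seed tissues from many seeds, and a lower level of a transcript may reflect fewer cells of a type or less RNA per cell, which cannot be told apart here. The p-values measure the spread between such pools only. In the main fit that spread is shared by all 20 libraries and is not estimated from these 4 alone.

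A soybean seed fills its cotyledons with storage proteins through mid-maturation and then loses water and shuts this programme down as it dries. The main storage proteins are the globulins β-conglycinin (the 7S class, with α′, α, and β subunits) and glycinin (the 11S class, encoded by the Gy genes), both of which belong to the cupin family. MADS-box, GRAS, DELLA, TCP, GATA, and NF-Y proteins are plant transcription factor families with roles in flower and seed development, hormone response, and growth.

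The 4 libraries held between 20981632 and 26460218 counts each, within the range of the series (18492047 to 30555808). As the check of the tissue, the 18 annotated cupin genes held 30.1% and 20.2% of all counts in replicates 1 and 2 at 50 DAF. Markers of the seed coat and endosperm were not measured, because no table ties such gene names to the identifiers. The 2 libraries of 50 DAF differed more than those of any other group, with a common dispersion of 0.0664 against 0.00384 to 0.0395 in the other 9 groups. The value of 0.0395 was that of cgy-2-NIL at 55 DAF, the other group of this comparison. The main fit shares the spread among all groups, so its p-values may understate the spread of these 2 groups. Replicate 2 of 50 DAF stood apart from replicate 1. Of the genes called higher and lower at 55 DAF, 78.1% and 72.1% lay nearer to their 55 DAF level in replicate 2 than in replicate 1. Across 40721 genes, its log2 difference from replicate 1 had a Pearson correlation of 0.51 with the change from 50 to 55 DAF in DN47, a contrast that uses none of these libraries. In the other groups the same measure, taken against the other line's change, lay between -0.061 and 0.097. Genes are not independent replicates, and these correlations share the library and its depth, so they are descriptions with no test. The labels give both libraries as 50 DAF and both were kept. The part of this difference in the results was not tested, and the counts of changed genes and the values of the genes it moved most are also given without replicate 2 of 50 DAF. In addition, 6 genes that the study lists among the largest line differences split the replicates of 55 DAF. Of these, GLYMA13G11961 had an RPKM (reads scaled by gene length and by the library total) of 2.73 and 2.21 at 50 DAF and of 2.56 and 155 at 55 DAF. The other 5, GLYMA13G11840, GLYMA13G11895, GLYMA13G12033, and a pair of gene models without a GLYMA identifier, were likewise high only in replicate 2 of 55 DAF among the 4 libraries, so they are not read as changes with age, although 4 of the 6 passed the test.

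**Figure D1:**
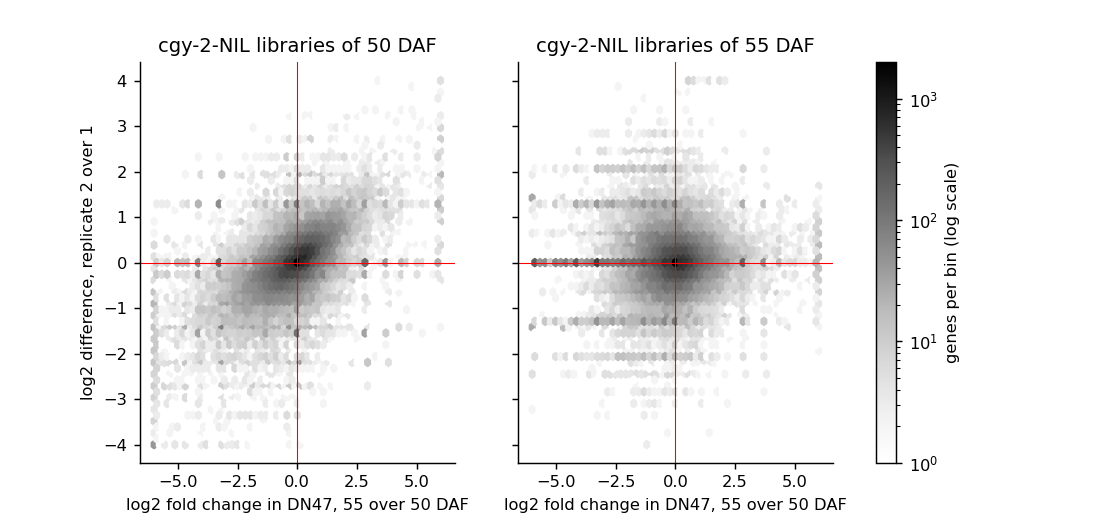
Log2 difference between replicates 2 and 1 of cgy-2-NIL (vertical, from normalized counts) against the log2 fold change from 50 to 55 DAF in DN47 (horizontal), for 40721 genes, with values beyond the axes drawn at their edge. The cloud is tilted at 50 DAF, where the Pearson correlation is 0.51, and not at 55 DAF, where it is 0.028.

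Most of the transcriptome that could be tested moved between 50 and 55 DAF in cgy-2-NIL. With edgeR's quasi-likelihood F test and a Benjamini-Hochberg adjusted p under 0.05, 11569 of 40721 genes were higher at 55 DAF (28.4%) and 13744 were lower (33.8%). The downward changes were larger than the upward ones. Among the genes called, the median log2 fold change was 1.16 for those that rose and -1.86 for those that fell, and 2767 genes (6.8%) rose against 6417 (15.8%) that fell by more than 2 on the log2 scale. Over all genes tested the median log2 fold change was -0.08. A further asymmetry was seen at the floor of detection, taken as 3 counts or fewer in both libraries of a stage. Of the genes that fell, 2840 were at this floor at 55 DAF, while 460 of those that rose were at it at 50 DAF. A gene could pass the filter through other stages or DN47, so these counts may depend on the filter, and its part was not tested. Where each of the 4 libraries needed at least 10 counts, which removes genes absent at a stage, 1487 rose and 2126 fell by more than 2. In a fit to the 4 libraries alone, which estimates the spread from them only, 8445 genes were higher and 9873 lower of 32218 tested, and 8403 and 9850 genes were called in the same direction by both fits. Without replicate 2 of 50 DAF, 11388 genes were higher and 13442 lower, and 3513 rose and 7039 fell by more than 2.

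The composition of the mRNA pool changed with the storage genes. The 10 genes with the most counts in a library held 37.1% and 28.4% of the counts at 50 DAF, but 9.90% and 9.31% at 55 DAF. At 50 DAF, 36 and 81 genes carried 50% of the counts, whereas 482 and 470 genes were needed for the same share at 55 DAF. Of the 10 genes with the highest mean RPKM at 50 DAF, 5 were cupin genes and 9 fell. The 10 highest at 55 DAF held no cupin gene, 7 of them rose, and only 1 gene was in both sets. Each set was ranked by its level at 1 of the compared stages, which favours falls in the first and rises in the second. Over all genes tested, 33.8% were lower and 28.4% higher. The share of gene models without a GLYMA identifier went from 0.315% and 0.325% to 0.717% and 0.693%. In each of these measures the libraries of the 2 stages did not overlap, and replicate 2 lay nearer to 55 DAF than replicate 1 within the 50 DAF pair.

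The largest storage transcripts were those of glycinin, and 5 of the 6 glycinin genes fell. Their summed RPKM was 154689 and 98561 at 50 DAF, then 4608 and 4138 at 55 DAF, and their share of all counts went from 25.2% and 15.99% to 0.715% and 0.652%. GLYMA03G32030 (Gy1), the most abundant transcript at 50 DAF, had an RPKM of 56799 and 36768 in the 2 libraries of 50 DAF and of 1826 and 1791 in those of 55 DAF. It was 26.3-fold lower in the fit, a log2 fold change of -4.72 ± 0.65 (SE, edgeR adjusted p = 7.13e-06). In the edgeR fit to the 4 libraries alone the adjusted p was 0.00202. GLYMA03G32020 (Gy2) went from 40299 and 27593 to 1838 and 1514 RPKM, 20.7-fold lower. Both genes thus kept four-digit RPKM values at 55 DAF, in each library. The genes for the other large glycinin subunits fell further. GLYMA10G04280 (Gy4) went from 21132 and 15111 RPKM to 436 and 422, 43.0-fold lower. GLYMA13G18450 (Gy5) went from 26075 and 15880 to 456 and 369 RPKM, 51.9-fold lower. GLYMA19G34780 (Gy3) showed the largest decrease of the 18 cupin genes and the largest ratio between the replicates of 50 DAF among the glycinin genes, with 10374 RPKM in replicate 1, 3192 in replicate 2, and 30.5 and 22.7 at 55 DAF. Its log2 fold change was -8.03 ± 1.01 (edgeR adjusted p = 1.08e-05), and it was -8.66 without replicate 2 of 50 DAF. The exception was GLYMA19G34770 (Gy7), a weakly expressed glycinin gene, which had 10.1 and 16.3 RPKM at 50 DAF and 21.3 and 20.4 at 55 DAF. It rose by 0.64 ± 0.18 on the log2 scale (edgeR adjusted p = 0.00627), but the call was lost in the fit to the 4 libraries (adjusted p = 0.0595) and without replicate 1 of 50 DAF (log2 fold change 0.35, adjusted p = 0.0946). Without replicate 2 of 50 DAF the log2 fold change was 1.00.

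The β-conglycinin genes fell as well, and all 5 were called. GLYMA10G39150, which encodes the α′ subunit and is the largest 7S transcript, went from 13979 and 10348 RPKM to 1592 and 974, a log2 fold change of -3.28 ± 0.48. The β subunit genes had log2 fold changes within an SE of each other. GLYMA20G28460 went from 1031 and 1133 to 113 and 113 RPKM and GLYMA20G28640 from 1261 and 1256 to 170 and 146, and their log2 fold changes were -3.28 ± 0.34 and -3.02 ± 0.28. At 50 DAF the replicates were closer together for these genes than for the glycinin genes Gy1 to Gy5. The α subunit genes had low levels at 50 DAF in this α-null line. GLYMA20G28650, with 325 and 238 counts at that stage, went from 5.82 and 3.38 RPKM to 0.243 and 0.0155, and its log2 fold change of -5.19 ± 0.62 moved between -8.09 and -4.28 when 1 of the 4 libraries was left out. GLYMA20G28660 had only 3 and 5 counts at 50 DAF and 0 and 0 counts at 55 DAF, so that its decrease is given only as at least 1.33-fold, against a floor of 3 counts per library. In DN47 at 50 DAF the same gene had 1459 and 1204 counts.

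Among the other 7S cupins, 2 of 3 fell. GLYMA10G03390 went from 4177 and 3907 RPKM to 710 and 494, 6.84-fold lower. GLYMA02G16440 went from 2021 and 1601 to 736 and 556 RPKM, 2.86-fold lower, and its call was lost without replicate 1 of 50 DAF (adjusted p = 0.0663) and without replicate 2 of 55 DAF (adjusted p = 0.0681). GLYMA10G39170, in contrast, had 1185 and 2089 RPKM at 50 DAF and 1827 and 1310 at 55 DAF, and the stages overlapped (log2 fold change -0.08 ± 0.44, edgeR adjusted p = 0.922). Without replicate 2 of 50 DAF its log2 fold change was 0.35, also not called. At 55 DAF it was the 7S gene with the highest RPKM in both libraries, above the α′ subunit gene. Of the 4 remaining cupin genes, 3 fell, all from low levels. GLYMA15G04710 went from 21.9 and 21.3 to 4.23 and 3.73 RPKM, and GLYMA08G13440 from 15.99 and 3.33 to 0.590 and 0.736, the latter with a log2 fold change of -3.87 that ran from -4.63 to -2.33 when 1 library was left out. GLYMA10G39161 had 13 and 25 counts at 50 DAF and 4 and 0 counts at 55 DAF (log2 fold change -3.20, from -7.90 to -2.23 with 1 library left out), and GLYMA16G00980 was at the floor at both stages. In all, 15 of 18 cupin genes fell and 1 rose, beside 33.8% lower and 28.4% higher over all genes tested. Their median log2 fold change was -3.57, or -3.28 with genes at the floor at their bound, beside -0.08 over all genes tested. The study lists these 18 genes as differing between the lines in these samples.

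**Figure D2:**
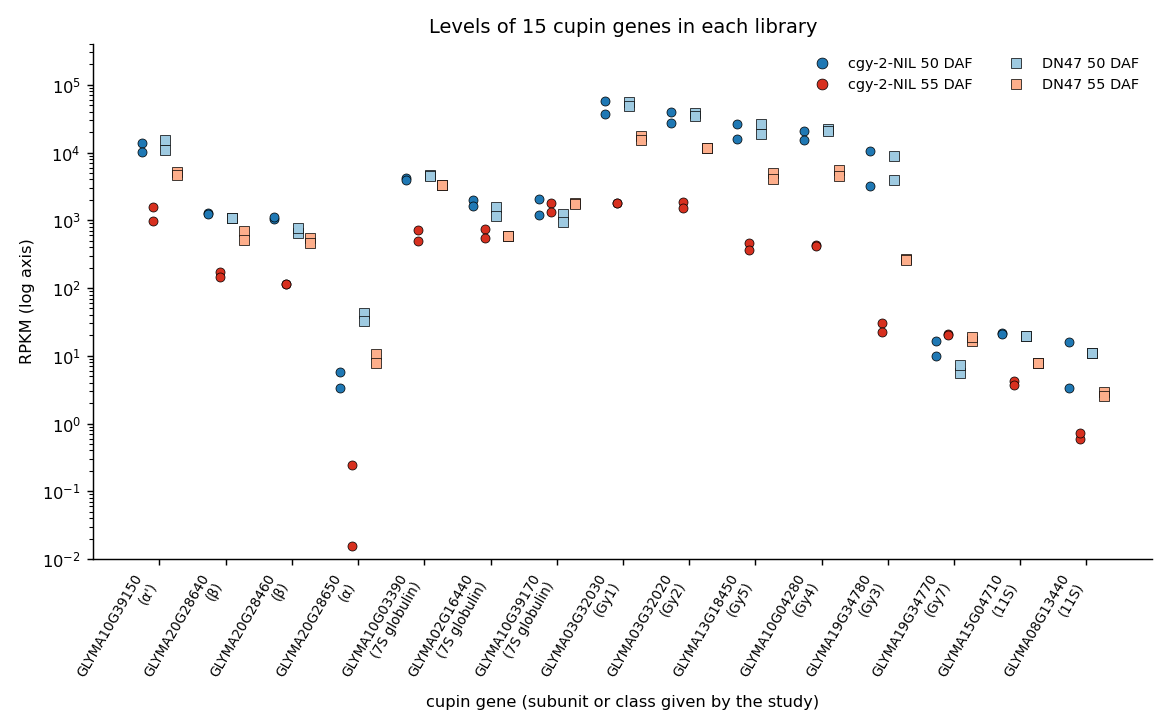
RPKM (log axis) of the 15 cupin genes with a count in all 8 libraries of 50 and 55 DAF, with 1 point per library, circles for cgy-2-NIL and squares for DN47. At 55 DAF the glycinin genes Gy1 to Gy5 lie lower in cgy-2-NIL (red circles) than in DN47 (orange squares), while GLYMA10G39170 stays between 942 and 2089 RPKM in all 8 libraries.

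Over the 5 stages of cgy-2-NIL, the drop after 50 DAF ended a long increase. The glycinin genes held 7.2e-05% and 4.27e-05% of the counts at 18 DAF, 0.657% and 0.179% at 25 DAF, then 9.62% and 14.98% at 35 DAF. Their largest share was that of 50 DAF. The mean RPKM of Gy1 was 0.00903 ± 0.0128 at 18 DAF (SD, n = 2), 1520 ± 1229 at 25 DAF, 26383 ± 7253 at 35 DAF, and 46784 ± 14164 at 50 DAF. It was back at 1809 ± 25.1 at 55 DAF, within the spread of 25 DAF. The 7S genes as a group had their largest share earlier, with 5.23% and 6.53% of the counts at 35 DAF. At 50 DAF it was 4.90% and 4.17%, and at 55 DAF 1.05% and 0.729%. The α′ gene accordingly had its highest mean at 35 DAF, 18999 ± 3154 RPKM, whereas the β gene GLYMA20G28640 had 501 ± 134 RPKM at 35 DAF and 1258 ± 3.84 at 50 DAF.

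**Figure D3:**
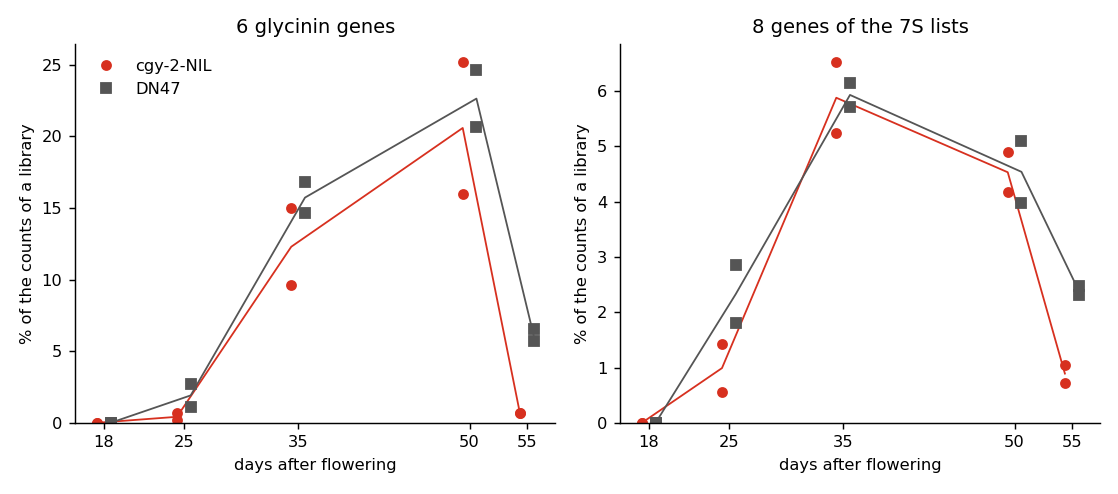
Share of the counts of a library (%) held by the 6 glycinin genes (left) and by the 8 genes of the 7S lists (right) at each stage, with 1 point per library and a line through the means, for cgy-2-NIL (red circles) and DN47 (grey squares). At 55 DAF the cgy-2-NIL libraries lie at 0.715% and 0.652% for glycinin and the DN47 libraries at 6.53% and 5.72%.

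Genes of several other processes fell to the floor of detection. These genes come from the study's list of the largest line differences, which was chosen on these samples, so their direction is not independent evidence. GLYMA04G02660 and GLYMA06G02690, both annotated as gibberellin-regulated proteins, had 65.6 and 15.3 RPKM and 28.7 and 12.5 RPKM at 50 DAF. At 55 DAF each had 1 count in 1 library and 0 in the other, so that they were at least 252-fold and at least 111-fold lower, against 3 counts per library. The replicates of 50 DAF were far apart for both, with replicate 2 again the lower. GLYMA10G39760, annotated as a xyloglucan endotransglycosylase, an enzyme that remodels cell wall polymers, went from 584 and 387 counts to 1 and 0 counts and was at least 171-fold lower. GLYMA07G39220, annotated as a petal formation gene, was at least 17.6-fold lower. Of the 17 genes of this list, 7 passed the test as higher and 7 fell, beside 28.4% higher and 33.8% lower over all genes tested. Of the 7 higher ones, 4 belong to the set that splits the replicates of 55 DAF.

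Other members of that list went from near the floor to clear expression. GLYMA16G03600, an aminotransferase of class I/II, had 0 and 2 counts at 50 DAF and 1146 and 1424 counts at 55 DAF (25.0 and 29.7 RPKM), and was at least 415-fold higher. The edgeR adjusted p was 6.01e-05, and the DESeq2 Wald test did not call it (adjusted p = 0.134). Its fitted log2 fold change, which is no bound, was 10.20, and 13.96 without replicate 2 of 50 DAF. GLYMA15G10450, a protein arginine N-methyltransferase, an enzyme that methylates histones and other proteins, had 0.164 and 0.0649 RPKM at 50 DAF and 14.0 and 5.34 at 55 DAF, a log2 fold change of 6.40 ± 0.51. It was high in both libraries of 55 DAF, though at unequal levels.

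The study's list of genes that differed between the lines at all 5 stages had 2 of 17 genes higher, 4 lower, and 11 not called over these 5 days, beside 28.4% higher and 33.8% lower over all genes tested. It was chosen on these samples too. GLYMA04G41540 is annotated with both small subunit and alpha subunit entries of glutamate synthase, an enzyme of ammonium assimilation. It went from 17.1 and 13.8 to 0.773 and 1.18 RPKM, 16-fold lower. GLYMA01G31300, which encodes ferritin, the iron storage protein, went from 28.6 and 25.7 to 2.88 and 2.32 RPKM, 10.6-fold lower. The other 2 that fell did so by less, GLYMA11G15580 (a response regulator) from 18.3 and 20.6 to 11.9 and 9.97 RPKM and GLYMA20G16100 (a development and cell death domain protein) from 4.99 and 3.65 to 2.42 and 2.30. The second of these calls was lost without replicate 1 of 50 DAF (adjusted p = 0.112) and without replicate 2 of 55 DAF (adjusted p = 0.0504). GLYMA12G13920, a glutaredoxin, which reduces disulfide bonds, rose from 2.43 and 2.25 to 11.3 and 6.65 RPKM, 3.76-fold.

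The transcription factors of the study's list, 74 genes, were also chosen on differences between the lines in these samples, most of them at 55 DAF. Of them, 24 rose, 42 fell, and 8 were not called, beside 28.4% higher and 33.8% lower over all genes tested, so the number that rose is near the share over all genes. The median log2 fold change was -1.22, beside -0.08 over all genes tested. The MADS-box family moved in 1 direction, with 14 of 14 genes lower at 55 DAF and log2 fold changes from -6.01 to -1.20. MADS-box proteins specify floral organs and act in ovule and seed coat development. The summed RPKM of the family was 245 and 216 at 50 DAF and 43.9 and 77.6 at 55 DAF, and replicate 1 of 55 DAF had the lower value. GLYMA11G16105 had the largest decrease, from 12.1 and 8.91 to 0.199 and 0.127 RPKM, 64.5-fold. GLYMA05G07286 went from 3.85 and 3.74 to 0.0940 and 0.150 RPKM, 30.8-fold lower. Of the most abundant members, GLYMA06G48270 had 42.4 and 38.6 RPKM at 50 DAF and 5.70 and 10.8 at 55 DAF, GLYMA08G42300 went from 47.4 and 42.7 to 10.4 and 20.01 RPKM, and GLYMA19G04320 from 38.5 and 39.4 to 13.5 and 19.9 RPKM. For these 3 genes the libraries of 55 DAF lay below both libraries of 50 DAF, as for 13616 of the 13744 genes called lower. At the earlier stages the summed RPKM went from 1103 and 1132 at 18 DAF to 661 and 666 at 25 DAF, and to 387 and 248 by 35 DAF. All 14 genes were also called lower in each fit that left out 1 of the 4 libraries.

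The GRAS family, plant regulators of growth and hormone signalling, had 10 of 28 genes higher, 13 lower, and 5 not called, not far from the shares over all genes (28.4% and 33.8%). Its summed RPKM was 63.9 and 75.3 at 50 DAF, then 203 and 172 at 55 DAF. GLYMA12G34420 went from 10.4 and 20.7 to 107 and 88.4 RPKM, 6.19-fold higher, and was the main part of that difference. GLYMA13G36120 rose from 4.31 and 4.48 to 34.8 and 16.9 RPKM, GLYMA20G30150 from 3.16 and 7.26 to 18.7 and 24.5, and GLYMA13G09220 from 1.46 and 1.36 to 10.1 and 8.87. In contrast, GLYMA08G43780 fell from 5.42 and 4.80 to 0.745 and 0.764 RPKM, GLYMA11G01850 from 3.06 and 2.53 to 0.271 and 0.373, and GLYMA01G43620 from 2.59 and 2.70 to 0.515 and 0.408. The stages did not overlap for any of these 7 genes, which was so for nearly all genes called (11472 of 11569 higher and 13616 of 13744 lower). The DELLA genes, the GRAS members that repress gibberellin responses, both fell. GLYMA18G04500 went from 26.3 and 24.1 to 5.403 and 3.495 RPKM (log2 fold change -2.53 ± 0.17), and GLYMA11G33720 from 10.4 and 12.7 to 5.04 and 3.64 RPKM (-1.44 ± 0.17).

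In the smaller families the changes went both ways, beside 28.4% higher and 33.8% lower over all genes tested. With so few members, the counts are not read as a result about the families. Of 7 TCP genes, 4 rose and 3 fell, led by GLYMA05G01131, which went from 0.127 and 0.252 to 2.79 and 2.83 RPKM, 14.2-fold higher. GLYMA03G02090 rose from 1.15 and 1.30 to 5.17 and 4.05 RPKM. Of the 3 GATA genes, GLYMA16G27171 fell from 7.90 and 6.30 to 0.672 and 0.814 RPKM, another fell, and GLYMA04G01090 rose from 0.205 and 0.461 to 0.896 and 1.36 RPKM. Of the 20 other factors, 9 rose and 8 fell. GLYMA17G00950, an NF-YB subunit of the CCAAT-binding NF-Y complex, fell from 15.4 and 9.52 to 0.877 and 0.343 RPKM, 20.8-fold. Its mean had been 179 ± 11.1 RPKM at 25 DAF (SD, n = 2) and 81.8 ± 0.0584 at 35 DAF. Members of the general transcription machinery were among those that rose. The study lists the ones named here as higher in α-null seeds at 55 DAF, a choice that favours a rise, and they rose in DN47 as well. GLYMA05G38060 and GLYMA05G07910, which encode TFIIE, went from 4.56 and 6.96 to 22.2 and 23.1 RPKM and from 1.65 and 2.73 to 9.16 and 6.97. GLYMA11G14450, a TFIIA subunit gene, rose from 11.3 and 18.3 to 44.8 and 48.0 RPKM, and GLYMA19G31830, annotated with a TFIIB site, from 1 and 6 counts to 82 and 72 counts. Without replicate 2 of 50 DAF, the log2 fold change of GLYMA19G31830 went from 4.42 to 5.94, that of GLYMA04G01090 from 1.69 to 2.40, and that of GLYMA20G30150 from 2.03 to 2.73.

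**Figure D4:**
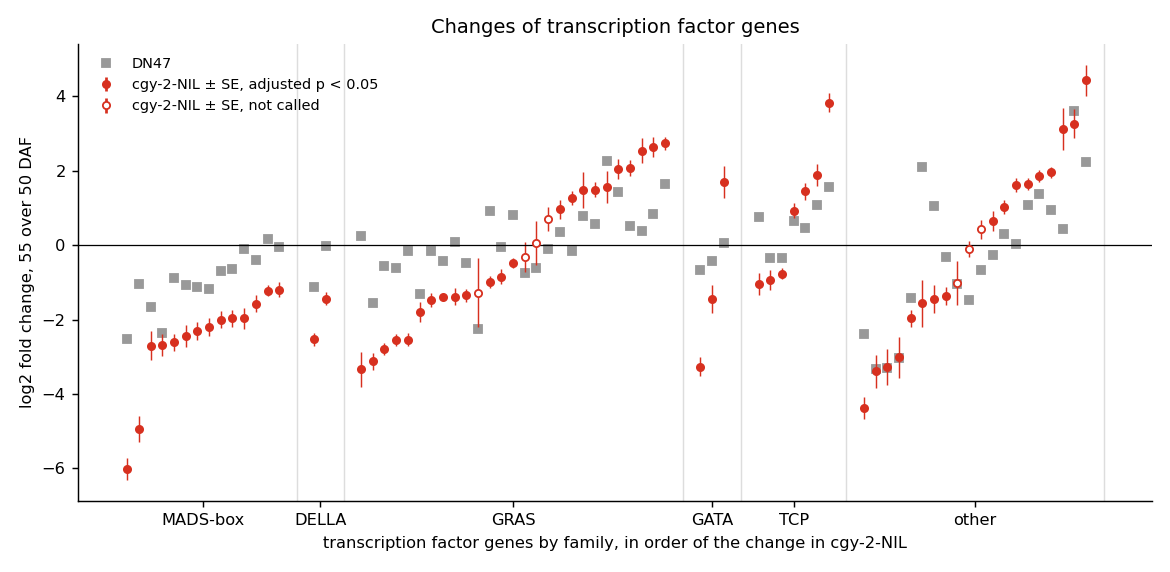
Log2 fold change from 50 to 55 DAF of 73 transcription factor genes by family, for cgy-2-NIL (red circles with SE, open where not called) and DN47 (grey squares). The 14 MADS-box genes all lie below 0 in cgy-2-NIL, between -6.01 and -1.20, and genes at the floor at a stage are drawn at their bound, without an SE.

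Most of the genes with the largest changes have no annotation in the sources used here. GLYMA06G46450 led the increases, with 0 and 1 counts at 50 DAF and 9360 and 8876 counts at 55 DAF (181 and 165 RPKM), at least 2947-fold higher. The next 9 increases under the naming rule started from the floor as well. GLYMA09G31740 had the highest mean RPKM at 55 DAF, with 1794 and 4812 RPKM at 50 DAF and 11711 and 10296 at 55 DAF. Its log2 fold change was 1.73 ± 0.34, and it was 2.56 without replicate 2 of 50 DAF, which lay between replicate 1 and the later libraries. GLYMA08G40260 was among the 10 largest decreases of genes with a mean of at least 100 RPKM, going from 459 and 358 to 1.44 and 0.343 RPKM, 471-fold lower. GLYMA16G33400, which had the highest mean RPKM of the genes without annotation at 50 DAF, went from 27253 and 18044 to 1845 and 1805 RPKM, 12.6-fold lower. Among genes with a mean of at least 100 RPKM at 1 of the stages that met the naming rule, 480 were higher and 124 were lower. Without the RPKM condition, 7992 genes that met the rule were higher and 8393 lower. The number of all genes tested at that RPKM is not given here, so these counts are not read as shares of the abundant genes.

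The same 5 days in DN47, measured in 4 other libraries, served to show where the change in cgy-2-NIL differed from that of its parent. In DN47, 9228 genes were higher (22.7%) and 10117 lower (24.8%) at 55 DAF. Of the genes that rose in cgy-2-NIL, 63.2% also rose in DN47, and of those that rose in DN47, 79.2% rose in cgy-2-NIL. Of the genes that fell, these shares were 60.7% and 82.5%. Few genes were called in opposite directions, 201 that rose and 354 that fell in cgy-2-NIL. Across genes the 2 lines' log2 fold changes had a Pearson correlation of 0.696, a description over genes fitted in 1 model. The difference between the changes was tested for each gene as an interaction. The change was more positive in cgy-2-NIL for 3994 genes (9.81%) and more negative for 6418 (15.8%). Of the latter, 67.1% fell in both lines by the fitted values and fell further in cgy-2-NIL, and of the former, 66.1% rose in both and rose further in cgy-2-NIL. The balance of these counts depends on the scaling of the libraries. Of the genes called, 38.4% were more positive with TMM factors, 49.4% with DESeq2 size factors, and 17.6% with total counts alone. The fit to the 8 libraries of both stages alone called 2001 and 3815 genes. In DN47 itself, 47.7% of the genes called were higher with TMM factors and 64.4% with total counts alone.

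Cupin genes were among the genes with a more negative change in cgy-2-NIL, which were 15.8% of all genes tested. The study lists its 18 cupin genes as differing between the lines in these samples, so their direction here is not independent evidence. The interaction was called for 9 of 18, all negative, with a median log2 difference of -2.25 beside -0.10 over all genes tested, and this number went down to 5 without replicate 2 of DN47 at 50 DAF and also without replicate 2 of cgy-2-NIL at 55 DAF. In DN47, Gy1 went from 55549 and 48699 RPKM to 17716 and 15281, so that it was above the 1826 and 1791 of cgy-2-NIL at 55 DAF. Its change was more negative in cgy-2-NIL by -2.78 on the log2 scale (edgeR adjusted p = 0.0165), but not past the threshold without replicate 2 of DN47 at 50 DAF (adjusted p = 0.0626). For the β gene GLYMA20G28460, DN47 went from 655 and 782 RPKM to 554 and 463, and the difference was -2.52 (adjusted p = 0.00125). For the α′ gene GLYMA10G39150 the difference was -1.59 and missed the threshold (adjusted p = 0.0745). GLYMA02G16440 changed by -1.51 in cgy-2-NIL and by -1.5 in DN47, with a difference of -0.02.

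**Figure D5:**
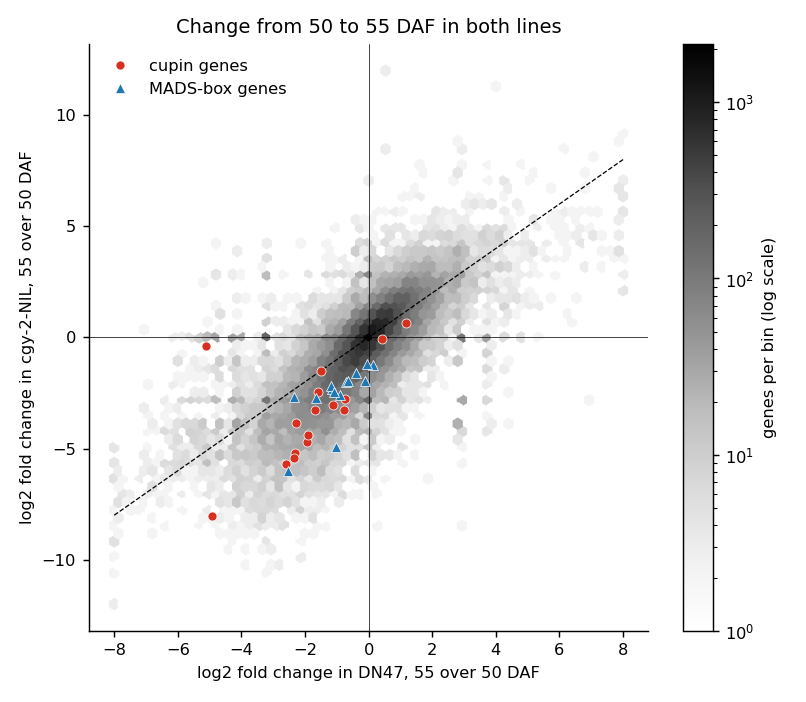
Log2 fold change from 50 to 55 DAF in cgy-2-NIL (vertical) against DN47 (horizontal) for 40721 genes, shaded by the number of genes per bin on a log scale, with values beyond the axes drawn at their edge and a dashed line where both changes are equal. Cupin genes (red circles) and MADS-box genes (blue triangles) mostly lie below the dashed line, and genes at the floor in 1 line at both stages are not drawn. Both lists come from the study's line differences in these samples.

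Among the transcription factors the interaction was negative for 31 of 74 genes and positive for 12, beside 15.8% and 9.81% of all genes tested. It was negative for 12 of the 14 MADS-box genes, 7 in the fit to the 8 libraries of both stages, and for both DELLA genes. Most of these factors entered the study's list through a line difference at 55 DAF, a stage that is part of the interaction. Its MADS-box and DELLA genes were all listed as reduced in α-null seeds of that age. These counts and directions are therefore not independent evidence. GLYMA19G04320 had 36.8 and 44.4 RPKM in DN47 at 50 DAF, then 54.8 and 53.0, and its change was more negative in cgy-2-NIL by -1.38 (edgeR adjusted p = 0.000138). The DELLA gene GLYMA11G33720 likewise had 12.7 and 17.0 RPKM, then 17.9 and 16.7, in DN47 (difference -1.40, adjusted p = 0.000329). GLYMA12G34420, the GRAS gene that rose most in level, went from 10.3 and 13.1 to 22.99 and 26.1 RPKM in DN47, and its change was more positive in cgy-2-NIL by 1.81 (adjusted p = 0.00275). In the gibberellin-regulated genes and the xyloglucan endotransglycosylase, the DN47 libraries of 55 DAF still held between 115 and 281 counts, where cgy-2-NIL had 0 or 1. GLYMA15G10450 stayed between 0.0395 and 0.0929 RPKM in all 4 DN47 libraries. GLYMA06G46450, the gene with the largest increase, had 0 counts in both DN47 libraries of 50 DAF as well, then 950 and 1952 counts. The change of this gene was not called different between the lines.

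The genes named for the smallest interaction p carried no annotation, and the first 2 in each direction are given. GLYMA08G37240 had 1.47 and 1.34 RPKM in cgy-2-NIL at 50 DAF and 25.0 and 21.8 at 55 DAF, while DN47 had 1.84 and 2.32 and then 1.91 and 1.87 (difference 4.44, edgeR adjusted p = 4.84e-09). GLYMA06G03340 went from 2.26 and 2.38 to 92.9 and 91.5 RPKM in cgy-2-NIL and from 4.34 and 4.33 to 16.7 and 21.8 in DN47 (difference 3.40). In the other direction, GLYMA10G25370 went from 11.4 and 11.1 to 0.886 and 0.982 RPKM in cgy-2-NIL and from 20.6 and 30.3 to 40.8 and 33.8 in DN47 (difference -3.91). GLYMA15G03521 fell from 42.7 and 51.6 to 1.89 and 1.11 RPKM in cgy-2-NIL, while DN47 had 40.7 and 41.1 and then 32.6 and 28.0 (difference -4.29). In all 4 genes the replicates of each group lay close together beside the difference, which the choice by p favours, so it is no separate support.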

How the data were processed

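Whole seeds were measured by RNA-seq (Illumina, paired ends). The authors counted reads per gene of the Ensembl Plants soybean annotation with HTSeq, and the counts were deposited without normalization. Neither an aligner nor a strand setting is given in the sources used here. The deposited RPKM values follow from the counts, the library total, and a single length for each gene, and carry no scaling between libraries. Every column was assigned to a sample by its label. Of the 59048 genes of the RefSeq table, 0 carry an identifier of the files. Gene roles are therefore those given by the study, no coordinates or sequences are given, and 27 lists by product name (seed coat and endosperm markers, photosystems, and others) were not used.

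Genes were filtered with filterByExpr and libraries scaled by TMM factors. The robust quasi-likelihood F test of edgeR 4.0.16, run under R 4.3.3, was fitted to 20 libraries in 10 groups (10 residual degrees of freedom). The contrasts were 55 minus 50 DAF in cgy-2-NIL, the same in DN47, and their difference. P-values were adjusted by Benjamini-Hochberg over all genes tested, with a threshold of 0.05. The SE of a log2 fold change was taken as its absolute value divided by the square root of the F statistic, and is approximate. A fold against a stage at the floor is a bound, computed from 3 counts per library. Besides the members of the study's lists, genes were named by rule. These were the 10 largest changes in each direction called in the fits to all and to 4 libraries, with no overlap of the stages and at least 20 counts on average, the same with a mean of 100 RPKM or more at a stage, the 10 highest RPKM at each stage, and the 5 interactions of smallest p in each direction with the same minimum of counts. Of those without annotation, at most 2 in each direction are printed per comparison, and the 3 chromosome 13 identifiers beside GLYMA13G11961 belong to a study list. The comparison, its lists, and its members were chosen with earlier results of these data known. Alternatives used DESeq2 1.42.0, limma 3.58.1 (voom), other scalings, filters, and sets of libraries, and a replicate block. The procedure was run on simulated counts with few changed genes and the same spread in all groups. The real groups differ in spread and most genes tested were called, so that run does not give the error rates here. Values were tabulated in pandas 2.3.3 and numpy 2.4.6 under Python 3.11.15 and drawn in matplotlib 3.10.9.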

Additional observations from a re-analysis of the deposited data

Results flagged for a closer look

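The change from 50 to 55 DAF differed between cgy-2-NIL and DN47 by the interaction test (edgeR, adjusted p under 0.05) for 3994 genes with a more positive and 6418 with a more negative change in cgy-2-NIL. The values here are differences of the log2 fold changes, cgy-2-NIL minus DN47. Of 58 genes described with their levels, 40 were called, 9 of them positive and 31 negative, beside 9.81% and 15.8% of all genes tested. Many of these genes come from the study's lists of line differences or were named for a small interaction p. Their number and direction therefore follow in part from how they were chosen. The cupin genes called were GLYMA20G28650 (-2.88), GLYMA20G28460 (-2.52), GLYMA20G28640 (-1.90), GLYMA10G03390 (-2.03), GLYMA03G32030 (-2.78), GLYMA03G32020 (-2.46), GLYMA10G04280 (-3.06), GLYMA13G18450 (-3.11), and GLYMA15G04710 (-0.86). The MADS-box genes were GLYMA11G16105 (-3.49), GLYMA05G07286 (-3.90), GLYMA06G48270 (-1.17), GLYMA19G04320 (-1.38), and GLYMA08G42300 (-1.17). Among GRAS genes the value was positive for GLYMA12G34420 (1.81), GLYMA13G36120 (2.15), and GLYMA13G09220 (1.11), and negative for GLYMA08G43780 (-2.21), GLYMA01G43620 (-2.38), GLYMA11G01850 (-1.56), and the DELLA genes GLYMA11G33720 (-1.40) and GLYMA18G04500 (-1.39). The other transcription factors were GLYMA16G27171 (-2.61), GLYMA04G01090 (1.64), GLYMA05G01131 (2.26), GLYMA17G00950 (-1.99), and GLYMA05G38060 (1.02).

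Ferritin GLYMA01G31300 (-2.09) and glutamate synthase GLYMA04G41540 (-2.13) were called, as were GLYMA15G10450 (7.75), GLYMA04G02660 (-6.58), GLYMA06G02690 (-7.60), GLYMA07G39220 (-5.40), and GLYMA10G39760 (-7.73). The last 4 of these were at the floor in cgy-2-NIL at 55 DAF, and GLYMA15G10450 was at the floor in DN47 at both stages, so these fitted values depend on the prior count and are no bounds. The genes without annotation were GLYMA08G40260 (-4.84), GLYMA16G33400 (-2.26), GLYMA08G37240 (4.44), GLYMA06G03340 (3.40), GLYMA10G25370 (-3.91), and GLYMA15G03521 (-4.29).

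Some of these calls did not hold in fits to fewer libraries. In the fit to the 8 libraries of both stages, those of GLYMA04G01090, GLYMA04G02660, GLYMA06G48270, and GLYMA08G42300 were lost. With 1 of the 8 libraries of both stages left out, the difference for Gy4 (GLYMA10G04280) lost its call in 6 of the 8 fits, with adjusted p between 0.0634 and 0.0916, and that for GLYMA04G01090 in 6 of 8, with adjusted p between 0.0579 and 0.17. GLYMA04G02660 lost it in 5, GLYMA06G48270 in 4, and GLYMA08G42300, GLYMA20G28650, GLYMA03G32020, and GLYMA13G18450 in 3. Without replicate 2 of cgy-2-NIL at 55 DAF the difference for GLYMA20G28650 was -1.98 (adjusted p = 0.113), and without replicate 1 of cgy-2-NIL at 55 DAF that for GLYMA06G48270 was -0.77 (adjusted p = 0.0536). Over these fits the difference ran from -5.79 to -1.98 for GLYMA20G28650, from -1.74 to -0.77 for GLYMA06G48270, from -1.76 to -0.75 for GLYMA08G42300, from 0.73 to 1.37 for GLYMA13G09220, and from -8.25 to -4.50 for GLYMA07G39220. GLYMA03G32030 lost its call only without replicate 2 of DN47 at 50 DAF. The other 31 genes kept their call in all 8 of these fits.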

How the results depend on the processing

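The counts of changed genes in cgy-2-NIL stayed within 1.5 times the main counts under every alternative run, except those above 2 on the log2 scale, which were 1487 higher and 2126 lower where each of the 4 libraries needed at least 10 counts, a filter that removes genes absent at 1 stage. Leaving out 1 library gave 10062 to 11388 genes higher and 12086 to 13442 lower. For the interaction, an adjusted p under 0.01 left 2097 and 3909 genes, the 8 libraries of both stages gave 2001 and 3815, total counts alone gave 1731 more positive genes, and leaving out 1 library gave 2584 to 4835 and 5021 to 6624, the lowest being without replicate 1 of DN47 at 55 DAF. The share of the 18 cupin genes at 55 DAF was 1.57% of counts and 1.27% of summed RPKM. Upper-quartile factors moved the median of all genes from -0.08 to -0.25. Among the genes described with their levels, no called change or difference turned its direction under the alternatives run, and directions of the other genes were not compared one by one. The replicate numbers were not shown to pair the samples, since the replicate differences of both stages had a correlation of 0.0354 over 40721 genes. With the replicate number as a block, 11539 genes were higher and 13675 lower. At 2 libraries per stage, changes of genes near the floor were the least precise.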

Other observations

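Set beside all 5 stages of cgy-2-NIL, the genes that rose from 50 to 55 DAF mostly reached their highest mean there. By normalized counts, 85.1% of them were highest at 55 DAF, and 6.66% at 18 DAF. Of the genes that fell, 82.2% had their lowest mean of the 5 stages at 55 DAF, while their highest mean was at 18 DAF in 29.0%, at 35 DAF in 22.8%, and at 50 DAF in 29.5%. These shares are partly set by the contrast itself, which takes a stage from each end of the 5 days.

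The chromosome is read from the gene identifier. The introgressed segment lies on chromosome 20, where 29.4% of 1683 genes were higher and 34.0% lower at 55 DAF, beside 28.4% and 33.8% of all genes. Over the 20 chromosomes the share higher ran from 26.8% on chromosome 18 to 31.3% on chromosome 4, and the share lower from 31.3% on chromosome 16 to 37.1% on chromosome 3. Gene models without a GLYMA identifier were called higher in 19.3% and lower in 19.5% of 2266.

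The change also varied with gene length among genes with a mean of at least 100 counts over the 4 libraries. In the shortest of 5 equal classes (132 to 1261 bases), 23.6% were lower and the median log2 fold change was 0.37, and in the longest (2842 to 16969 bases) these values were 33.5% and 0.12. In DN47 the medians of the same genes were 0.10 and 0.14. The difference between replicates 2 and 1 of cgy-2-NIL at 55 DAF ran the same way with length, with medians of 0.17 and -0.12 on the log2 scale, and its part in the length pattern was not tested.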
